A study of Mus musculus with 6 samples.

Results

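The constitutive proteasome genes were followed in mouse hematopoietic cells transformed with the oncogene MLL-AF9. Every row whose symbol begins with Psm, a letter from a to g and a number was taken, except Psmb8, Psmb9 and Psmb10 of the immunoproteasome and names ending in -ps, and a gene was kept where its CPM, the count scaled to the library total, reached 1 in at least 3 of the 6 libraries. Of 24062 genes in the table, 50 matched the pattern, 47 were left after the exclusions and 45 were kept. These were 14 genes of the 20S core, 17 of the 19S regulatory particle, 7 assembly chaperones, 6 activators or inhibitors, and Psmc3ip, a recombination factor that carries the prefix without being a proteasome gene. The 2 that were not kept were Psmb11, the thymus-specific catalytic subunit, with 5, 0 and 0 reads in the WT-labelled and 6, 0 and 0 in the KO-labelled libraries, and Psma8, the testis-specific alpha subunit, with 2 reads in all.

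The cells were lineage-negative hematopoietic cells of Rosa Cre-ER mice, A20+/+ for the WT label and A20f/f for the KO label, transduced with MLL-AF9 by retrovirus, with 3 libraries labelled WT and 3 labelled KO. A20 is a ubiquitin-editing enzyme encoded by Tnfaip3 that restrains NF-kB signalling. All cultures, WT included, carried the tamoxifen-activated Cre recombinase, grew with IL-6, IL-3 and SCF, and received 1 uM 4-hydroxytamoxifen for 48 h, which was given to delete the floxed A20 allele. The labels do not say whether replicates came from separate animals or cultures, so the spread behind each p-value may be a technical one.

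The 26S proteasome degrades proteins that carry ubiquitin. Its 20S core is a barrel of alpha rings, which gate the entrance, and beta rings, which hold the proteolytic sites. The 19S particle caps the core. Its base holds a ring of ATPases that unfold substrates together with ubiquitin receptors, and its lid removes ubiquitin. Dedicated chaperones build both particles, and other caps such as the PA28 complex can take the place of the 19S. Subunits are made in fixed proportions, and the transcription factor Nfe2l1 raises their genes together when proteasome activity is short. Drugs against its beta5 site are used in blood cancers.

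The libraries held 16113320 to 25415274 counted reads. Levels below are TMM-scaled CPM, and a fold change is the log2 of KO-labelled over WT-labelled from edgeR. Tnfaip3 itself stood at 7.39, 8.67 and 8.24 CPM in the WT-labelled and at 100.1, 74.1 and 79.1 CPM in the KO-labelled libraries. It was higher in the KO-labelled libraries by 3.38 (SE 0.17, edgeR adjusted p = 4.7e-05), which goes against the label; a count over the whole gene does not show whether a deleted exon is missing. Directions are therefore given between the libraries labelled KO and the libraries labelled WT. Both replicate 1 libraries stood apart from replicates 2 and 3, with Gapdh at 2645 and 2716 CPM against 167 to 254 CPM. Among cell type markers, all 4 hematopoietic markers were present in every library, with summed levels of 806 to 1450 CPM in WT-labelled and 1613 to 2350 CPM in KO-labelled libraries. Within that sum Runx1 (-1.42) and Cd53 (1.04) passed edgeR's test in opposite directions, and Ptprc (0.59) and Spi1 (0.34) did not pass. The 6 myeloid progenitor markers summed to 3653 to 4190 CPM and 1123 to 1835 CPM. All 6 were lower in KO-labelled libraries, the largest falls being Cd34 from a mean of 613 to 1.63 CPM and Mpo from 200 to 0.43 CPM. These and Kit (-1.80) and Ctsg (-0.98) passed edgeR's test, while Elane (-0.93) and Prtn3 (-0.80) did not. The 4 monocyte and macrophage markers summed to 390 to 3223 CPM and 1487 to 2553 CPM. Of these, Csf1r (3.07) and Cd14 (3.85) were higher, while Itgam (0.56) and Lyz2 (-1.13) did not pass edgeR's test. Within the WT-labelled group all 4 were lowest in replicate 1. Csf1r stood there at 2.84 CPM against 36.2 and 35.3 CPM in replicates 2 and 3, and Lyz2 at 243 against 2705 and 1889 CPM. Within the KO-labelled group all 4 were highest in replicate 1. The part of these differences in the results below was not tested, and fewer cells of a type and less RNA per cell cannot be told apart in bulk RNA. Markers of other types were at or near 0: Cd3e and Cd8a of T cells, Ms4a1 of B cells, Hba-a1 and Alas2 of erythroid cells and Dcn of stroma had no reads, and Cdh5 and Kdr of endothelium stayed under 1 CPM. The summed endothelial level, 258 to 329 CPM in WT-labelled and 58.9 to 104 CPM in KO-labelled libraries, came from Pecam1, which blood cells also carry. Stromal markers summed to 0.79 to 1.99 CPM and 2.97 to 5.25 CPM. Among them Pdgfrb was called higher (3.11, edgeR adjusted p = 0.0023), at 0.50, 0.23 and 0.45 CPM in WT-labelled and 2.70, 4.03 and 3.70 CPM in KO-labelled libraries. Col1a1 (-0.29) did not pass.

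Most proteasome genes differed little between the groups. All 45 passed the low-count filter, and 4 of them (Psmb4, Psmd4, Psmd10 and Psme4) rose and 1 (Psme1) fell in the KO-labelled libraries, while 40 did not pass the test. Of all 12126 genes tested, 27.3% were called, 13.7% higher and 13.7% lower, so the 5 calls among 45 were a smaller share than the background. The log2 fold change was within 0.5 of 0 in 40 of 45 members (88.9%) and in 59.6% of all tested genes. The median size of the change, without its sign, was 0.19 over members and 0.38 over all genes. The median with its sign was 0.12 over members and -0.04 over all genes, and 30 members were above 0 and 15 below (28 were above 0 with upper-quartile scaling). KO-labelled and WT-labelled values did not overlap in 10 members, 7 higher and 3 lower, against 47.6% of all tested genes.

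**Figure D1:**
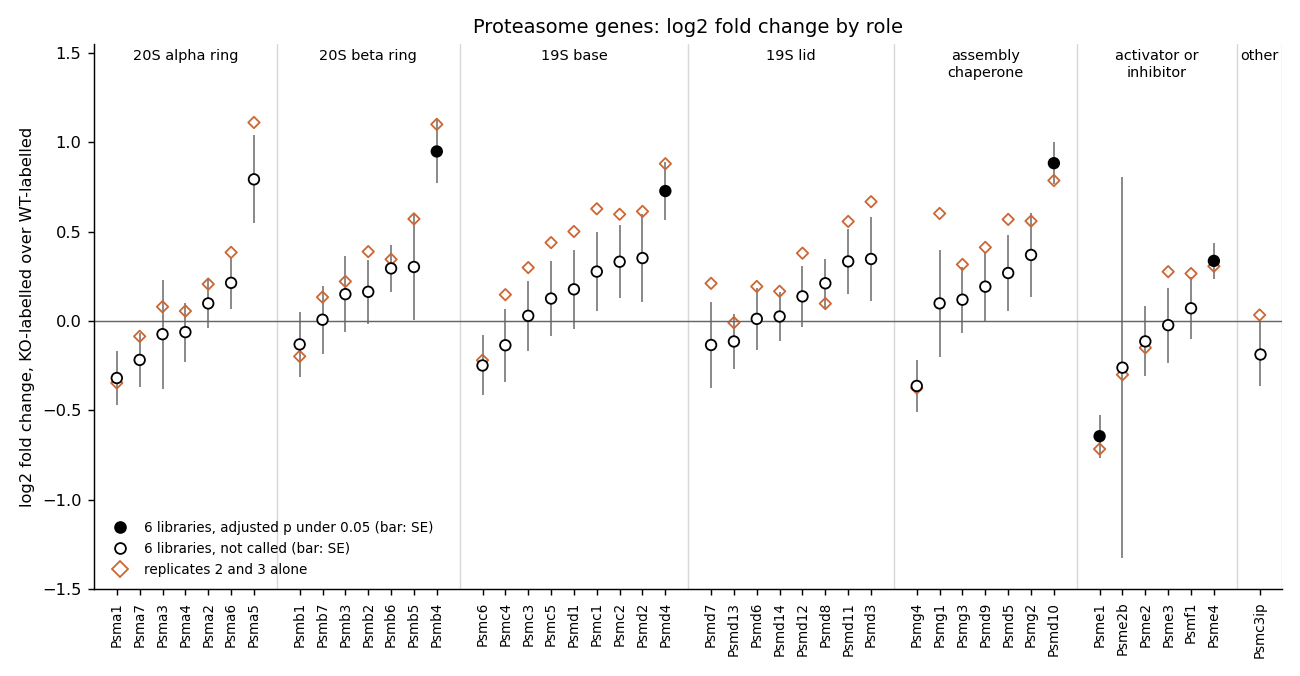
Log2 fold change of each of the 45 genes, KO-labelled over WT-labelled, with its standard error from edgeR (circles, 3 libraries a group; filled where called), and the value from replicates 2 and 3 alone (open diamonds), by role. Most circles lie within 0.5 of 0, with Psmb4 (0.95), Psmd10 (0.88), Psma5 (0.79) and Psmd4 (0.73) above and Psme1 (-0.65) below, and most diamonds of the 19S base lie above their circles.

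The summed level of these genes spread more among the WT-labelled libraries than it differed between the groups. The 45 genes summed to 9171, 7426 and 6498 CPM in WT-labelled replicates 1, 2 and 3, and to 8279, 8520 and 8424 CPM in the KO-labelled ones. The means were 7698 CPM ± 1357 (SD, n = 3) and 8408 CPM ± 121 (SD, n = 3). The KO-labelled sums lay close together, inside the range of the WT-labelled sums. WT-labelled replicate 1 was the high one: it exceeded both other WT-labelled libraries in 38 of 45 members (84.4%), against 43.1% of all tested genes. It stood above their mean by a median of 0.46 on the log2 scale over the members and by 0.005 over all tested genes. KO-labelled replicate 1 differed from replicates 2 and 3 of its group by a median of -0.04 over the members. Of the 35 members that share under 20% of their 31-base words with transcripts of other genes, 29 were higher in WT-labelled replicate 1 than in both others.

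The replicate 1 pair and the other replicates differed in direction. Between the 2 replicate 1 libraries the members' median difference was -0.25, and between the means of replicates 2 and 3 it was 0.32; over all tested genes these were -0.04 and 0.01. Without WT-labelled replicate 1, edgeR called 21 of 45 members higher and 1 lower, where 22.0% and 20.8% of 12343 genes were called. In replicates 2 and 3 alone it called 26 members higher and 3 lower (Psme1, Psmg4 and Psme2b), where 25.8% and 27.1% of 12201 genes were called. The called rises among replicates 2 and 3 ran from 0.21 (Psmd7) to 1.11 (Psma5). They covered 6 of 14 core genes, 11 of 17 genes of the 19S particle, 6 of 7 chaperones and 3 of 6 activators or inhibitors. The replicate 1 libraries give a single pair and no test of their own. In the fit of replicates 2 and 3 alone, p-values here and for single genes below rest only on the spread between those 2 libraries. The same holds for the WT-labelled spread in the fit without WT-labelled replicate 1. With replicates 2 and 3 summed within each group, 1 member was called higher and 0 lower, against 543 and 518 of 12569 genes.

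**Figure D2:**
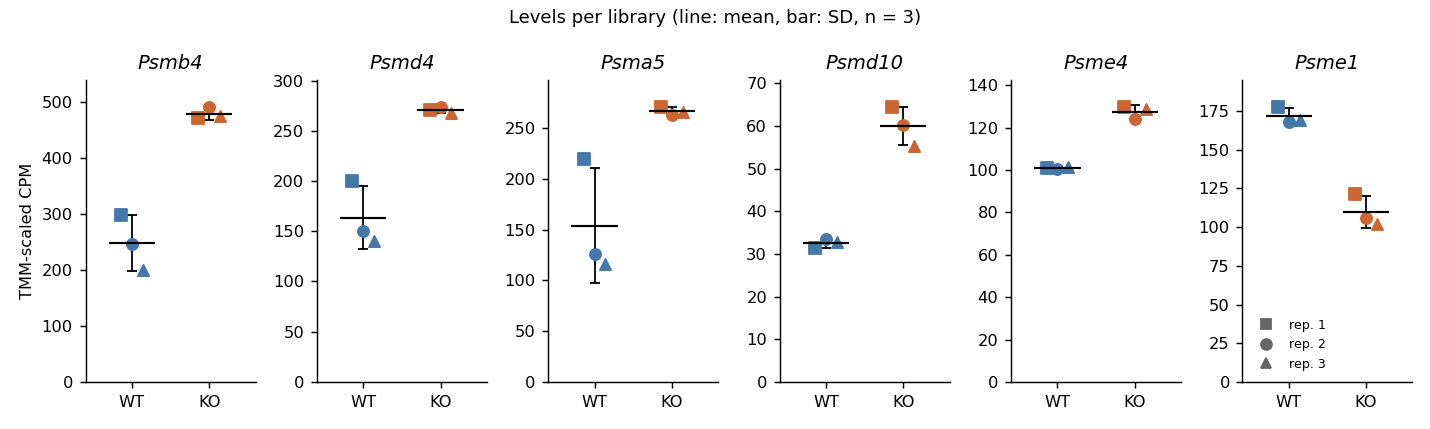
TMM-scaled CPM (each panel from 0) of single genes in the 3 WT-labelled (blue) and the 3 KO-labelled (orange) libraries, 1 point per library with the mean and SD. None of the 6 genes overlaps between groups, and WT-labelled replicate 1 is the highest WT-labelled library for Psmb4 (299), Psmd4 (200) and Psma5 (220).

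The genes that code for subunits of the 26S particle numbered 31, and the 2 that were called, Psmb4 and Psmd4, lie 145732 bases apart on chromosome 3. Psma5, the third 26S gene on that chromosome, lies 13.2 Mb further along and is described with them although it was not called; it was chosen after its values were seen. The upstream sequences of these 3 genes and of Psmd10, which rose as much from the X chromosome, are shown because these had the 4 largest positive fold changes, of which that of Psma5 did not pass the test. Each is the 250 bases before the start site in RefSeq on GRCm38.p6, 5′ to 3′ on the gene's strand, from chr3:94886959-94887208 (minus strand), chr3:95042615-95042864 (minus), chr3:108256676-108256925 (plus) and chrX:140956712-140956961 (minus). Capitals mark CCAAT, the box bound by the factor NF-Y, or ATTGG where it lies on the other strand.
Psmb4: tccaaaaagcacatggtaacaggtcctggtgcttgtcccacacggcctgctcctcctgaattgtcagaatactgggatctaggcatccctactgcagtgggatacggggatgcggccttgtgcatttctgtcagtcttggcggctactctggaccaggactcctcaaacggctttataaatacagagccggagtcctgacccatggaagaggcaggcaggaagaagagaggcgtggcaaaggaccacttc
Psmd4: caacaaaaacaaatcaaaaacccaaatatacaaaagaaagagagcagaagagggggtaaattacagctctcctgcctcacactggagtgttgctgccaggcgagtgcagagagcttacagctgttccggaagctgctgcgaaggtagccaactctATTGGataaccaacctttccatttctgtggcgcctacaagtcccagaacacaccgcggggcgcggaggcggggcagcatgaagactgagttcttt
Psma5: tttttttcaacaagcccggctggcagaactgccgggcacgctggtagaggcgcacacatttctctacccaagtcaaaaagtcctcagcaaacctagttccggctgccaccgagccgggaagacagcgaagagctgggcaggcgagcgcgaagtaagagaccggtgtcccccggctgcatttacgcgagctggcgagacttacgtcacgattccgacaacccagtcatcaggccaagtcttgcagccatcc
Psmd10: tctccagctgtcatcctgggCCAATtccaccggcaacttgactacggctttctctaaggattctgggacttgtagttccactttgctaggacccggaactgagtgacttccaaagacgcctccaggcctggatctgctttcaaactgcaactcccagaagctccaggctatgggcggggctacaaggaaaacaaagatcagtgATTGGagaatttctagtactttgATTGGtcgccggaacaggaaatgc

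Psmb4 and Psma5 had no CCAAT in this window, Psmd4 had 1 and Psmd10 had 3, so these 4 genes did not all hold it. An entry was found for 38 of the 45 members, and 13 of them (34.2%) held CCAAT on either strand in at least 1 entry. The share was 37.5% of all 27025 genes with an entry of the same length and 40.8% of tested genes with one. Among the 13 members were 6 of 11 core genes with an entry and 4 of 14 genes of the 19S particle. The core of the antioxidant response element recognised by Nfe2l1 and Nfe2l2, searched as TGACNNNGC on both strands, was in 5 members (13.2%): Psmb5, Psmb6, Psmc6, Psmd12 and Psmd9. It was in 11.5% of all genes with an entry and 14.2% of tested genes with one. A match is a run of letters and not a measured binding site, and the window leaves out sites elsewhere.

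The alpha ring held no gene called by edgeR among 7, with a median log2 fold change of -0.06; Psma5 alone had an unadjusted p under 0.05 and was called by DESeq2 and by limma-voom. Psma6, the most abundant alpha gene at 163 CPM per kilobase of exon, stood at 215.5, 176.4 and 165.6 CPM in WT-labelled and 195.1, 225.3 and 225.9 CPM in KO-labelled libraries. The groups overlapped, and the difference of 0.21 (SE 0.15) did not pass (edgeR adjusted p = 0.33). It was called higher without WT-labelled replicate 1, at 0.34 (edgeR adjusted p = 0.045), and in replicates 2 and 3 alone, at 0.38 (0.0041). Without any other single library it was not called, at 0.14 to 0.28. Psma1 had the lowest fold change of the ring, with levels of 418.7, 455.2 and 345.3 CPM against 340.6, 319.4 and 316.9 CPM. All 3 KO-labelled values lay below the WT-labelled ones, but the difference of -0.32 (SE 0.15) did not pass the test (edgeR adjusted p = 0.16).

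Psma5, at chr3:108256926-108279974 on the plus strand (mm10, GENCODE), encodes an alpha subunit. It stood at 219.5, 126.4 and 116.3 CPM in WT-labelled and 270.8, 263.5 and 266.4 CPM in KO-labelled libraries. The groups did not overlap, with WT-labelled replicate 1 nearest the KO-labelled libraries. The difference of 0.79 (SE 0.25) lay just past the threshold, at an edgeR adjusted p of 0.053. With DESeq2, limma-voom, size-factor, upper-quartile or library-total scaling, or no low-count filter, it was called, at adjusted p of 0.007 (DESeq2) to 0.047 (edgeR without the filter). Psma5 was not called with a filter on CPM (edgeR adjusted p = 0.051), non-robust dispersion (0.054), the replicate block (0.067) or replicates 2 and 3 summed (0.26). Nor was it called when any library but WT-labelled replicate 1 was left out (0.12 to 0.15). It shares 61.0% of its 31-base words with other transcripts, most of them with the gene model Gm8394, so its count may be divided between loci.

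The beta ring held 1 called gene among 7, with a median of 0.16. Psmb4, at chr3:94884093-94886961 on the minus strand, encodes a non-catalytic beta subunit whose tail helps to join the core during assembly. It stood at 299.0, 245.6 and 199.8 CPM in WT-labelled and at 471.2, 491.0 and 474.5 CPM in KO-labelled libraries. The lowest KO-labelled value was above the highest WT-labelled one, and all 3 KO-labelled libraries were close together. Psmb4 rose by 0.95 (SE 0.18, edgeR adjusted p = 0.008), the largest rise of the 45. It shares none of its words with other transcripts. The difference was 0.65 between the replicate 1 libraries and 1.12 in replicates 2 and 3.

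Psmb5, the chymotrypsin-like catalytic subunit and the target of proteasome inhibitors, had the highest level per kilobase of all members, 209 CPM. It stood at 252.5, 134.7 and 118.6 CPM in WT-labelled and 243.3, 198.4 and 181.9 CPM in KO-labelled libraries, a difference of 0.30 (SE 0.30, edgeR adjusted p = 0.50). It was called higher without WT-labelled replicate 1, at 0.72 (edgeR adjusted p = 0.0087), and in replicates 2 and 3 alone, at 0.57 (0.0025). Without any other single library it was not called, at 0.10 to 0.39. The replicate 1 libraries were the highest of both groups, and 71.7% of its words are shared, most with Gm3375. Psmb1, another non-catalytic subunit, had the lowest value of the ring at -0.13 (SE 0.18, edgeR adjusted p = 0.64), with 357.1, 489.0 and 327.2 CPM against 351.9, 352.9 and 366.3 CPM. The other 2 catalytic genes, named after their values were seen, were not called: Psmb6 (caspase-like) had 0.29 with groups that did not overlap, and Psmb7 (trypsin-like) had 0.007.

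The 19S base held 1 called gene among 9, with a median of 0.18. Psmd4, at chr3:95032694-95042614 on the minus strand, encodes a ubiquitin receptor of the base. It stood at 199.6, 150.4 and 140.6 CPM in WT-labelled and 270.6, 273.5 and 267.9 CPM in KO-labelled libraries. As for Psmb4, the KO-labelled libraries were all higher and close together. Psmd4 rose by 0.73 (SE 0.16, edgeR adjusted p = 0.015), with 0.44 between the replicate 1 libraries and 0.89 in replicates 2 and 3. The call was lost when any library other than WT-labelled replicate 1 was left out, at edgeR adjusted p of 0.051 to 0.064.

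Psmd2, a scaffold that docks ubiquitin receptors, had the highest base level per kilobase, 108 CPM. It stood at 534.2, 297.6 and 313.9 CPM against 516.3, 480.7 and 465.2 CPM, a difference of 0.35 (SE 0.24, edgeR adjusted p = 0.33). It was called higher without WT-labelled replicate 1, at 0.68 (edgeR adjusted p = 0.0039), and in replicates 2 and 3 alone, at 0.61 (0.00077). Without any other single library it was not called, at 0.20 to 0.39. WT-labelled replicate 1 was above every KO-labelled library, and the other WT-labelled libraries were below them all. Psmc6, an ATPase of the base ring, had the lowest base value, -0.25 (SE 0.17, edgeR adjusted p = 0.32), with 261.4, 327.7 and 232.9 CPM against 204.8, 237.7 and 249.0 CPM. The groups overlapped.

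The lid held no gene called by edgeR among 8, and 0 at an unadjusted p under 0.05, by DESeq2 or by limma-voom. Its median was 0.08, and all 8 were within 0.5 of 0. Psmd8, a small lid subunit, had the highest lid level per kilobase, 111 CPM. It stood at 281.0, 348.9 and 313.4 CPM in WT-labelled and 375.2, 362.3 and 354.0 CPM in KO-labelled libraries. The groups did not overlap, but the difference of 0.21 (SE 0.14) did not pass (edgeR adjusted p = 0.30). Psmd3, a lid scaffold subunit, had the largest lid value, 0.35 (SE 0.23, edgeR adjusted p = 0.32), with 215.7, 118.6 and 126.9 CPM against 192.3, 203.0 and 191.3 CPM. It was called higher without WT-labelled replicate 1, at 0.68 (edgeR adjusted p = 0.0019), and in replicates 2 and 3 alone, at 0.67 (0.00059). Without any other single library it was not called, at 0.19 to 0.37. Psmd7, the partner of the deubiquitinase Psmd14, had the lowest, -0.13 (SE 0.24, edgeR adjusted p = 0.73), with 311.9, 168.3 and 181.5 CPM against 193.5, 207.4 and 202.0 CPM; in replicates 2 and 3 alone it was called higher, at 0.21 (0.046). In both genes WT-labelled replicate 1 lay well above the other WT-labelled libraries.

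The difference in level between the 19S particle and the core was nearly the same in the 2 groups. The mean over the 14 core genes, as log2(TMM-scaled CPM + 1), was 8.08, 7.82 and 7.51 in WT-labelled and 8.004, 7.98 and 7.97 in KO-labelled libraries. The mean over the 17 genes of the 19S particle was 7.81, 7.34 and 7.29 in WT-labelled and 7.56, 7.71 and 7.68 in KO-labelled libraries. The difference, 19S minus 20S, was -0.27, -0.48 and -0.22 in WT-labelled and -0.44, -0.27 and -0.29 in KO-labelled libraries. The group means were -0.32 ± 0.14 and -0.33 ± 0.09 (SD, n = 3 each). They differed by -0.01, well inside the spread of either group, and by 0.07 in replicates 2 and 3; no test was made on this score. The median log2 fold change was 0.12 for the core and 0.14 for the 19S particle. With 1 library left out, the core median ran from -0.015 (without WT-labelled replicate 3) to 0.31 (without WT-labelled replicate 1) and the 19S median from 0.05 (without WT-labelled replicate 2) to 0.32 (without WT-labelled replicate 1).

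**Figure D3:**
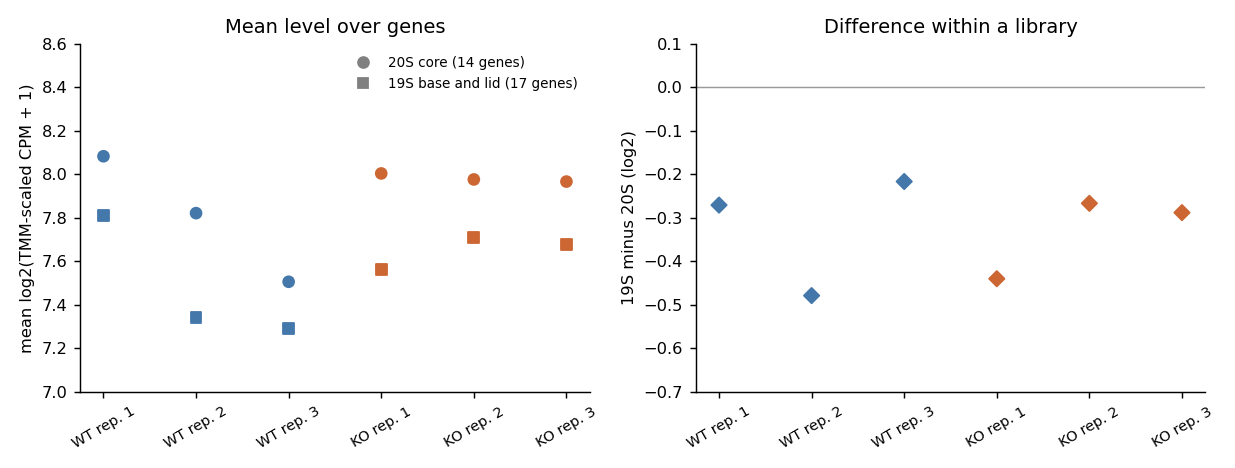
Left, mean log2(TMM-scaled CPM + 1) over the 14 core genes (circles) and the 17 genes of the 19S particle (squares) in each library; right, the difference within each library, WT-labelled in blue and KO-labelled in orange. The WT-labelled levels spread from 7.51 to 8.08 for the core while the KO-labelled ones sit at 7.97 to 8.004, and the differences of the 2 groups overlap.

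Levels per kilobase compare the genes with each other. Over all 6 libraries the median was 109 CPM per kilobase for the core, from 46.3 (Psma3) to 209 (Psmb5), and 66.3 for the 19S particle, from 18.9 (Psmd11) to 111 (Psmd8). The chaperones were lower, with a median of 21.1, from 5.28 (Psmd9) to 34.3 (Psmg4). Activators and inhibitors ran from 5.51 (Psmf1) to 77.1 (Psme3). The length is that of all annotated exons of a gene merged, so genes with long, little-used exons appear too low.

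**Figure D4:**
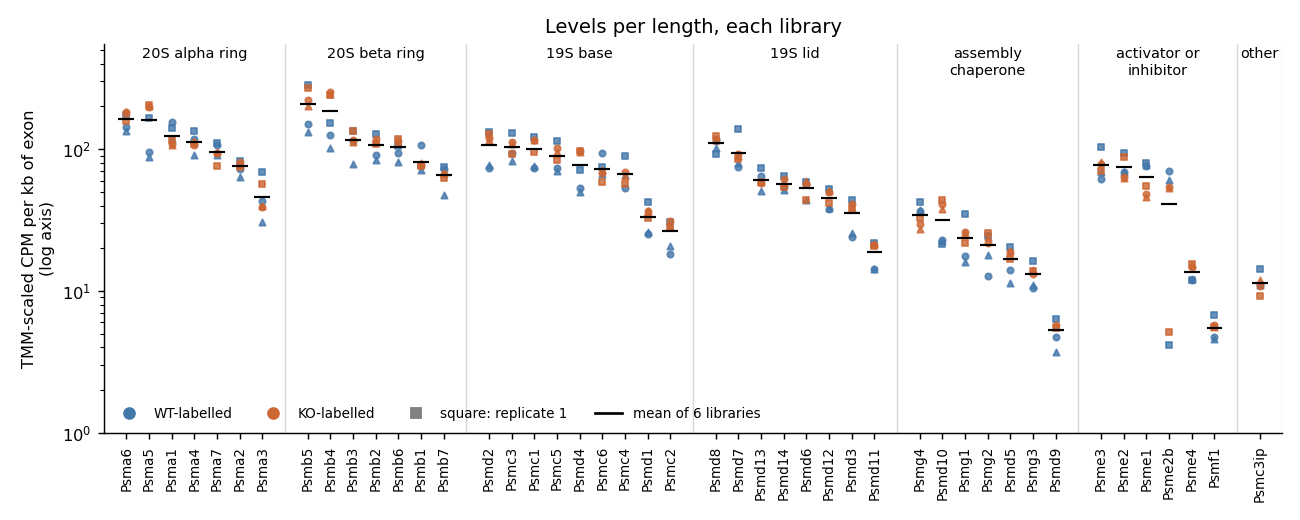
Level of each gene in each library, WT-labelled in blue and KO-labelled in orange with squares for replicate 1, and the mean of the 6 libraries (black lines), in TMM-scaled CPM per kilobase of merged exon (log axis), by role. The means of core genes run from 46.3 to 209, genes of the 19S particle from 18.9 to 111 and chaperones from 5.28 to 34.3.

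Away from chromosome 3 no subunit of the 26S particle passed edgeR's test on all 6 libraries. There, 0 had an unadjusted p under 0.05 or a call by DESeq2 or limma-voom. Without WT-labelled replicate 1, 11 of these 28 were called higher, where 22.0% of 12343 genes were called higher. The 28 subunits elsewhere ranged from -0.32 (Psma1) to 0.35 (Psmd2), with a median of 0.11. The neighbours of Psmb4, Psmd4 and Psma5 were also high. Of 539 tested genes on chromosome 3, 28.6% were called higher and 10.6% lower, with a median of 0.31, against 13.1%, 13.9% and -0.05 for the 11010 genes placed elsewhere. Between 70 and 120 Mb the median over 300 tested genes was 0.56, and 123 (41.0%) were called higher and 20 lower. On the rest of the chromosome the median over 239 genes was -0.05, with 31 called higher and 37 lower. The stretch from 70 to 120 Mb was set after the data were seen.

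Among 128 bins of 20 Mb with at least 30 tested genes, the 2 with the highest medians were those that hold these 3 genes. The bin at 100 to 120 Mb, with Psma5, had a median of 0.58, and that at 80 to 100 Mb, with Psmb4 and Psmd4, 0.53; the next highest, on chromosome 12, had 0.15. The rise in the stretch was seen in both sets of replicates, with a median of 0.57 between the replicate 1 libraries and 0.52 in replicates 2 and 3. Within 5 Mb, the median was 0.52 over 108 neighbours of Psmb4, 0.52 over 105 of Psmd4 and 0.59 over 66 of Psma5. The genes' own fold changes exceeded those of 79.6%, 66.7% and 71.2% of these neighbours. Whether the neighbourhood had a part in the 3 genes' differences was not tested.

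**Figure D5:**
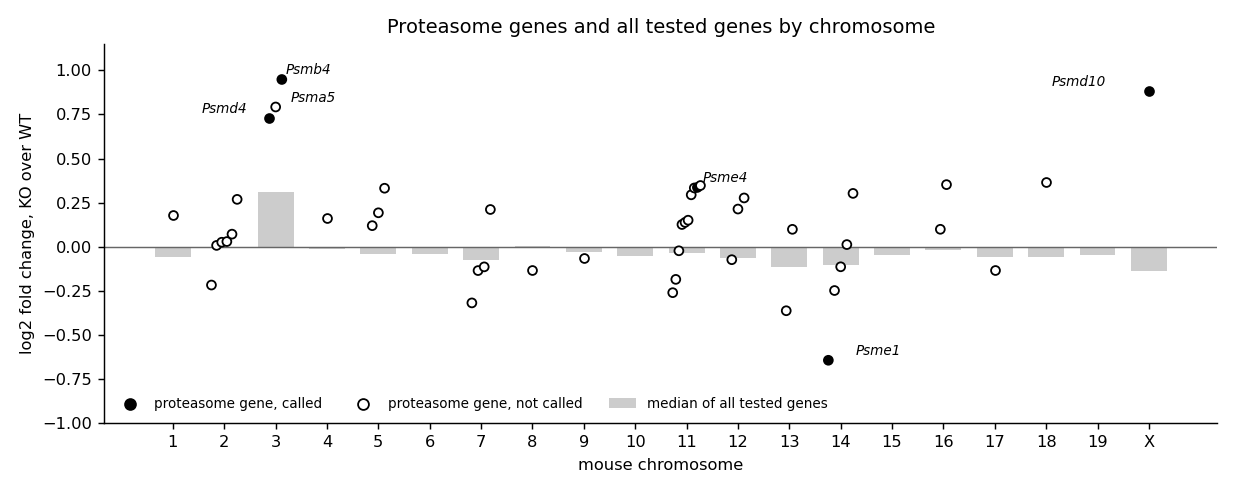
Log2 fold change (KO-labelled over WT-labelled) of the 45 genes by chromosome (circles, filled where called) over the median of all tested genes on that chromosome (grey bars). Chromosome 3 has the highest median (0.31) and holds Psmb4, Psma5 and Psmd4; Psmd10 stands alone on X, where the median is -0.14.

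The chaperones held 1 called gene among 7, with a median of 0.19. Psmd10, at chrX:140948429-140956728 on the minus strand, encodes gankyrin, which escorts an ATPase of the base during assembly and is also studied as an oncoprotein. It stood at 31.3, 33.4 and 32.9 CPM in WT-labelled and 64.4, 60.2 and 55.4 CPM in KO-labelled libraries. The groups were far apart, and each was close within itself, WT-labelled replicate 1 included. Psmd10 rose by 0.88 (SE 0.12, edgeR adjusted p = 0.002), with 1.02 between the replicate 1 libraries and 0.78 in replicates 2 and 3. It was the one member called under every alternative tried, from other scalings and tools to leaving out each library. The 23 tested neighbours within 5 Mb had a median of 0.02, and 356 tested genes on the X chromosome had a median of -0.14. Xist, the RNA of the inactive X, was at 564, 2109 and 2090 CPM in WT-labelled and 0, 4.76 and 4.77 CPM in KO-labelled libraries. The X-linked state and the label therefore cannot be told apart, for this gene or in any other comparison of these groups.

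Psmg4, which pairs with Psmg3 to start the alpha ring, had the lowest chaperone value. It stood at 23.3, 20.4 and 20.5 CPM in WT-labelled and 18.1, 16.5 and 15.3 CPM in KO-labelled libraries. The groups did not overlap, but the difference of -0.36 (SE 0.15) did not pass (edgeR adjusted p = 0.11). Psmg4 lies at 20 to 40 Mb on chromosome 13, the bin with the lowest median of the 128. That median was -0.46 over 99 tested genes, of which 8 were called higher and 34 lower. Whether the neighbourhood had a part in the difference was not tested.

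The activators and inhibitors held 1 gene called higher and 1 lower among 6, with a median of -0.07. Psme1, at chr14:55578123-55581529 on the plus strand, encodes the alpha subunit of PA28, a cap induced by interferon that pairs with the product of Psme2. It stood at 177.5, 168.0 and 169.3 CPM in WT-labelled and 121.7, 105.8 and 101.8 CPM in KO-labelled libraries. All KO-labelled libraries were lower, and the WT-labelled ones lay within a narrow range. Psme1 fell by 0.65 (SE 0.12, edgeR adjusted p = 0.008), the largest fall of the 45. The call was lost without KO-labelled replicate 2 or replicate 3, at edgeR adjusted p of 0.058 and 0.056. Its 105 tested neighbours within 5 Mb had a median of -0.21.

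Psme2, the partner gene 5911 bases away and named after its values were seen, had a difference of -0.11 (SE 0.20, edgeR adjusted p = 0.71). The ratio of Psme1 to Psme2 was 1.08, 1.38 and 1.39 in WT-labelled and 0.78, 0.94 and 0.93 in KO-labelled libraries, so it was lower in all 3 KO-labelled libraries. Reads of Psme2 may be divided with its copy Psme2b, which shares 78.4% of its words with other transcripts, most with Psme2. Psme2b was at 3.46, 58.7 and 50.4 CPM in WT-labelled and 4.33, 45.0 and 44.5 CPM in KO-labelled libraries, low in both replicate 1 libraries.

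Psme4, at chr11:30771726-30880361 on the plus strand, encodes PA200, a cap found mainly in the nucleus. It stood at 100.9, 100.6 and 101.5 CPM in WT-labelled and 129.6, 124.0 and 128.7 CPM in KO-labelled libraries. The groups did not overlap and each was tight. Psme4 rose by 0.34 (SE 0.10, edgeR adjusted p = 0.047), near the threshold: the call was lost with library-total scaling (0.099), upper-quartile scaling (0.055) or no low-count filter (0.088), and when any library but WT-labelled replicate 1 was left out (0.095 to 0.17). Psme3, the nuclear PA28 gamma cap and the most abundant of the class per kilobase, stood at 303.5, 181.0 and 203.1 CPM against 206.1, 232.3 and 238.1 CPM, a difference of -0.02 (SE 0.21, edgeR adjusted p = 0.95). It was above 0 with limma-voom (0.02). In replicates 2 and 3 alone Psme3 was called higher, at 0.28 (edgeR adjusted p = 0.026). Psmc3ip, which is not a proteasome gene, stood at 26.1, 20.2 and 20.1 CPM against 16.7, 19.8 and 21.9 CPM, a difference of -0.19 (SE 0.18, edgeR adjusted p = 0.49).

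Other genes of the ubiquitin-proteasome pathway were taken from a list of 38 symbols, of which 37 were found and tested. Of these, 4 were called higher and 3 lower, and 30 did not pass, with a median of 0.12; over all tested genes 13.7% were called higher and 13.7% lower. Among 3 further constitutive factors 1 rose: Pomp, the chaperone that matures the beta ring, at 133.9, 131.2 and 131.4 CPM against 176.2, 197.7 and 187.5 CPM. Its rise was 0.50 (SE 0.11, edgeR adjusted p = 0.015), with groups that did not overlap. It was not called without KO-labelled replicate 2 or replicate 3, at edgeR adjusted p of 0.091 and 0.073.

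Of the 3 immunoproteasome subunits, which replace the catalytic subunits of the core under interferon, 1 fell. Psmb9 stood at 52.4, 79.8 and 64.9 CPM in WT-labelled and 38.6, 37.8 and 34.4 CPM in KO-labelled libraries. It fell by 0.83 (SE 0.17, edgeR adjusted p = 0.012), and was not called without KO-labelled replicate 2 (0.051) or replicate 3 (0.058). Psmb8 (-0.18) and Psmb10 (0.26), named after their values were seen, did not pass.

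Of 4 regulators of proteasome genes 2 rose, both transcription factors. Nfe2l2, the oxidative stress factor, stood at 103, 154 and 181 CPM in WT-labelled and 329, 271 and 275 CPM in KO-labelled libraries. All KO-labelled libraries were higher, and the rise was 1.00 (SE 0.22, edgeR adjusted p = 0.016). It was not called without KO-labelled replicate 1 (0.061) or WT-labelled replicate 2 (0.057). Nfe2l1 stood at 227, 182 and 185 CPM in WT-labelled and 289, 285 and 277 CPM in KO-labelled libraries. It rose by 0.52 (SE 0.14, edgeR adjusted p = 0.029), a call lost when any library but WT-labelled replicate 1 was left out (0.079 to 0.11).

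Of 16 enzymes and shuttle factors that bind the proteasome, 1 rose and 2 fell. Ublcp1, a phosphatase that acts on the 26S particle, stood at 0.75, 1.21 and 4.27 CPM in WT-labelled and 33.5, 19.5 and 18.4 CPM in KO-labelled libraries. It rose by 3.52 (SE 0.65, edgeR adjusted p = 0.008), and it shares 30.9% of its words with other transcripts. Ubqln2, an X-linked shuttle for ubiquitinated proteins, fell by 0.76 (SE 0.15, edgeR adjusted p = 0.011), from 78.0, 55.5 and 60.1 CPM to 38.3, 38.1 and 38.3 CPM. It was not called without KO-labelled replicate 2 (0.056) or replicate 3 (0.054). As for Psmd10, the X-linked state and the label cannot be told apart for Ubqln2. Fbxo7, a ubiquitin ligase adaptor that binds the inhibitor encoded by Psmf1, fell by 0.57 (SE 0.16, edgeR adjusted p = 0.037), from 39.9, 29.6 and 37.1 CPM to 22.3, 26.5 and 23.0 CPM. That call was lost without the low-count filter (0.0504) or without any 1 of 4 libraries: KO-labelled replicates 1, 2 and 3 and WT-labelled replicate 3 (0.082 to 0.14).

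None of 11 genes for ubiquitin, its activating enzymes and the p97 machinery, which extracts ubiquitinated proteins, was called by edgeR, while in replicates 2 and 3 alone 6 were called higher. At an unadjusted p under 0.05 there were 2, Uba1 and Ufd1l, which were also the 2 called by DESeq2; limma-voom called 0. Rps27a, an abundant gene that encodes ubiquitin fused to a ribosomal protein, was at -0.14 and did not pass. Over the whole list, replicates 2 and 3 alone gave 16 of 37 called higher and 6 lower, where 25.8% and 27.1% of all tested genes were called.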

How the data were processed

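Libraries were made with a stranded TruSeq mRNA kit, per the labels. The submitters' processing notes name the tools FastQC 0.11.7, HISAT2 2.0.5 and featureCounts 1.5.2 and the build mm10. Not given in the sources used here are the annotation and whether reads were counted by strand. The deposited table holds whole-number read counts per gene and library, not normalized.

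The counts of 24062 genes went into edgeR 4.0.16 (R 4.3.3), where the default filter on low counts left 12126 genes. After TMM scaling, the robust quasi-likelihood test was used, with Benjamini-Hochberg adjustment over all tested genes and a threshold of 0.05. The fit was tested on simulated data. The simulated libraries were drawn independently and without a difference of replicate 1, so the simulation does not bear on that difference. Scores are the mean of log2(TMM-scaled CPM + 1). Alternatives were DESeq2 1.42.0, limma-voom (limma 3.58.1), other scalings and filters, a replicate block, replicates 2 and 3 alone or summed, and leaving out each library; those by chromosome, by bin and without multi-copy genes were added after the data were seen. Positions, exon lengths and shared 31-base words came from GENCODE vM21 (GRCm38, the assembly of mm10) in Python 3.11.15, where 22708 symbols had 1 position; promoters came from RefSeq (GRCm38.p6).

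The members and gene lists were chosen with earlier results of these data known. Named by rule were Tnfaip3, called members, the most abundant member and the largest rise and fall per role, and called genes per list (up to 4 in order of p, else the 2 most abundant). Of the genes this rule names, 1 is not reported here. Over all tested genes the deviations of same-numbered libraries from their group means had correlations of -0.01, -0.06 and 0.05, so they were not treated as pairs, although both replicate 1 libraries deviated the same way at genes such as Gapdh and Psme2b.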

Additional observations from a re-analysis of the deposited data

How the results depend on the processing

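All members passed the low-count filter. Of the single libraries left out, WT-labelled replicate 1 moved the count of members called higher most. Against 4 members called higher and 1 lower, replicates 2 and 3 alone gave 26 and 3, summing replicates 2 and 3 within each group gave 1 and 0, and leaving out 1 library gave 2 to 21 and 0 to 1. Over all genes, against 1660 higher and 1656 lower, DESeq2 gave 2061 and 2026, and replicates 2 and 3 alone gave 3149 and 3309. For all genes summing gave 543 and 518, and leaving out 1 library gave 939 to 2712 and 916 to 2568. Over the list of other pathway genes, against 4 and 3, DESeq2 gave 8 and 5, replicates 2 and 3 alone 16 and 6, summing 1 and 0, and leaving out 1 library 2 to 11 and 0 to 4. The replicate block gave 989 higher and 1034 lower genes, 3 members higher and 1 lower (Psme4 was lost, at an edgeR adjusted p of 0.13), and 1 listed gene higher, with Nfe2l2 (0.058), Nfe2l1 (0.074), Pomp (0.065) and Fbxo7 (0.12) no longer called; the labels do not say that a number marks a shared animal or day. Differences near 0 changed sign. Psme3 went to 0.021 with limma-voom, 0.012 with the replicate block and 0.28 in replicates 2 and 3, where it was called higher. Its difference ran from -0.17 to 0.24 when 1 library was left out. In replicates 2 and 3 Psmd7 went to 0.21 and was called higher, and Psmc3ip went to 0.033 and was not called. With 1 library left out, Psmb1 ran from -0.25 to 0.054, Psmd7 from -0.30 to 0.21 and Rps27a from -0.53 to 0.034. The cause was not tested. Other scalings moved the median of all genes by at most 0.015.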
